A study of Mus musculus with 11 samples.

Results

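The Rbpj library was a single chromatin immunoprecipitation and sequencing (ChIP-seq) sample with an antibody to Rbpj, and its members are all peaks that MACS listed for it against the input of the same cells. There were 20993 Rbpj peaks, of 27054 peaks in the 5 factor lists of the series. The cells were 8946, a mouse T-cell lymphoblastic leukaemia line, and all 11 samples of the series came from it. Per the labels' protocols it was transduced by retrovirus with an epitope-tagged Zmiz1 (NGFR as marker) and an activated Notch1 (GFP as marker), and cells positive for both markers were sorted. The Rbpj sample and its input carry Flag-Zmiz1 and the Notch1 construct L1601PDP. They share this line (the Flag line) with Flag-Zmiz1, ICN1 and 4 histone libraries. The HA line, with HA-Zmiz1 and the construct DEGFDLNRDP, gave the HA-Zmiz1 and ICN1 libraries used beside Rbpj. Factor chromatin was fixed with DSG and formaldehyde, and histone chromatin with formaldehyde alone. Every Rbpj value therefore describes 1 library of 1 line that overexpresses Zmiz1 and activated Notch1, with no untransduced sample, no replicate and so no test between conditions.

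Rbpj (also called CSL) is the DNA-binding protein of the Notch pathway. Without Notch signalling it sits on DNA with corepressors such as Spen, Ncor1, Hdac1, Kdm5a and the L3mbtl3-Kdm1a pair. When a Notch receptor is cleaved, its intracellular part (ICN1 for Notch1) binds Rbpj and brings Mastermind proteins and the acetyltransferases Ep300 and Crebbp. In thymocytes this switch drives T-lineage commitment, and activating Notch1 mutations are common in T-cell leukaemia. Rbpj recognises sites built around the word TGGGAA, in its high-affinity form CGTGGGAA.

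The sequences below show where that word lay in the promoters with the tallest Rbpj summits. They are stretches of up to 60 bases on each side of the summit, within windows of 300 bases around listed starts (RefSeq, GRCm38.p6, the same build as mm10), 5′ to 3′ on the strand of the gene, with the word TGGGAA or its reverse complement TTCCCA in capitals. The first 6 are the tallest low-input summits whose window holds the word. Gk5, a glycerol kinase-like gene, is shown at chr9:96119179-96119260 (+ strand, pileup 109 tags). Rpl23, a ribosomal protein gene, is at chr11:97782463-97782583 (− strand, 99 tags), and Cnot10, a subunit of the CCR4-NOT deadenylase, at chr9:114640181-114640301 (− strand, 96 tags). Prc1, a cytokinesis gene, is at chr7:80294258-80294378 (+ strand, 89 tags), the zinc-finger gene Zbtb11 at chr16:55973554-55973665 (+ strand, 89 tags), and the zinc-finger gene Zfp850 at chr7:28014156-28014276 (− strand, 88 tags).
Gk5: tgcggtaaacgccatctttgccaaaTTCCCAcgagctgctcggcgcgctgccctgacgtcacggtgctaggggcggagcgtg
Rpl23: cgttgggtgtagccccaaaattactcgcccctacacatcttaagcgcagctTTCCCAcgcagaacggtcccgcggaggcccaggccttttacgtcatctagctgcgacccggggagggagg
Cnot10: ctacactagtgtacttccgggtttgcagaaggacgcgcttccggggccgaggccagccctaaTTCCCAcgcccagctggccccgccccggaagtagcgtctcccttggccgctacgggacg
Prc1: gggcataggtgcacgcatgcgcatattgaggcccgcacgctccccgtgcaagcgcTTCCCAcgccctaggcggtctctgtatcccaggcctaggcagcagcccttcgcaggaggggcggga
Zbtb11: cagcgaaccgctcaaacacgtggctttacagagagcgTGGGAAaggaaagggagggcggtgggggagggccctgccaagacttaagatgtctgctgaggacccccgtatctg
Zfp850: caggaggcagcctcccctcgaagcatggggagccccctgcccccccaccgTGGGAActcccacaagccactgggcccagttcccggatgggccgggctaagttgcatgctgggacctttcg

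In each of the 6, the centre of the word lay 2.5 to 11.5 bp from the summit. All 6 stretches also held the longer word CGTGGGAA on one strand or the other, although the choice asked for TGGGAA alone. Among all 21263 listed promoter windows of 300 bases, which are longer than these stretches, TGGGAA stood in 24.5% and CGTGGGAA in 0.856%. TGGGAA lies within CGTGGGAA, so 182 of the 5212 windows with the shorter word held the longer one. For contrast, 3 Notch target genes had a summit inside a listed promoter window. These were Gata3, the T-helper and early T-cell regulator, at chr2:9878582-9878702 (− strand), Cdkn1a, the p21 cell-cycle inhibitor, at chr17:29093604-29093724 (+ strand), and Notch1 at chr2:26503773-26503886 (− strand).
Gata3: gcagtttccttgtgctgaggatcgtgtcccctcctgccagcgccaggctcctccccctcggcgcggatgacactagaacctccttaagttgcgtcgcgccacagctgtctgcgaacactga
Cdkn1a: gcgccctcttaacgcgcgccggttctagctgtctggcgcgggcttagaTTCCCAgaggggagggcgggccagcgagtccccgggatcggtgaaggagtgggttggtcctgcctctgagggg
Notch1: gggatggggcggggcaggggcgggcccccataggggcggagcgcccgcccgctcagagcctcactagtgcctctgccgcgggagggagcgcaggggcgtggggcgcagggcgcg

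Their summits were far below the tallest ones shown above, with pileups of 16 tags at Gata3, 16 at Cdkn1a and 14 at Notch1. These heights lay between the quartiles of all Rbpj peaks (12 and 19 tags, median 14). Targets without a listed start could not be among the Notch targets shown. One of those, Myc, had summits of 22 and 27 tags at 174 and 217 bp from a span end. Cdkn1a held the word once, 9.5 bp from the summit, and the Gata3 and Notch1 windows held it nowhere. A match is a run of letters, and its absence from a window says only that these letters are not there.

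The Rbpj library held 19048270 tags after filtering (of 21958345) and its input 36404168. The pileup is the number of tags, each extended to 63 bp, that cover the summit, and the fold sets it against the local input. The median Rbpj peak was 129 bp wide, with a pileup of 14 tags (quartiles 12 and 19) and a fold of 6.47. The other factor lists came from 13450671 to 15429394 tags and held 82 to 4984 peaks. T-cell identity could be read from H3K4me3, a mark of active starts: it covered a start of 8 of 8 T-cell markers, 1 of 6 B-cell markers (Ebf1) and 1 of 6 myeloid markers (Itgam). Both H3K27 libraries went against their labels. The library labelled H3K27me3 covered starts of 19 of 20 housekeeping genes and 1 of 20 developmental regulators, and the library labelled H3K27ac covered 0 and 17, so they are called here by label only.

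Close to 1 in 2 Rbpj peaks lay at a gene start. The summit was within 1 kb of a protein-coding start for 10017 peaks (47.7%, exact 95% interval 47.0 to 48.4), and within 100 bp for 4956 of them (23.6% of all peaks). A further 3750 (17.9%) lay between 1 and 10 kb, and 7226 (34.4%) over 10 kb from every start. The other factor lists had smaller shares within 1 kb. For HA-Zmiz1 the share was 18.7% (17.6 to 19.8), for ICN1 of the HA line 15.7% (12.3 to 19.6), for Flag-Zmiz1 5.34% (3.65 to 7.49), and for ICN1 of the Flag line 0 of 82 (up to 4.40%). Of those 82 peaks 53 were high-input peaks, where the local input was 10 or more times the library mean, and without them 0 of 29 (up to 11.9%) were near a start. Without such peaks the Rbpj share was 47.8%. All such intervals cover counting error only, and they treat each peak as independent although close peaks are related.

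Around listed starts the summits formed a narrow, lopsided peak. Of 8335 summits within 1 kb of a listed start, 5102 (61.2%, 60.2 to 62.3) lay upstream, and the median position was 31 bp upstream with quartiles at 128 bp upstream and 50 bp downstream. The fullest 50-bp bin, directly upstream of the start, held 1525 summits, against a mean of 12.9 per bin between 1500 and 2000 bp away. The far end of the gene showed no such density. Among 9132 genes with spans over 10 kb whose far end was over 5 kb from any start, 3705 (40.6%, 39.6 to 41.6) had a summit within 1 kb of the start and 133 (1.46%, 1.22 to 1.72) within 1 kb of the far end.

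**Figure D1:**
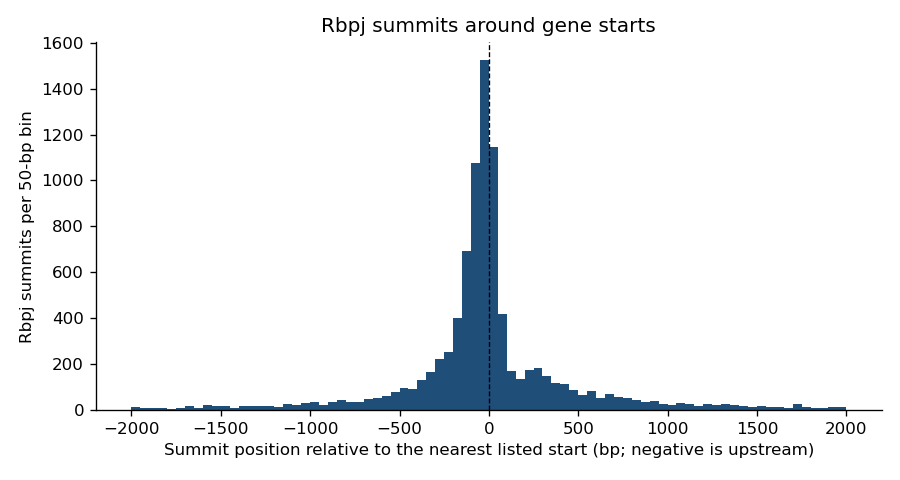
Rbpj summits per 50-bp bin (vertical axis) by position relative to the nearest listed protein-coding start (horizontal axis, bp, upstream negative). The fullest bin holds 1525 summits directly upstream of the start, and counts fall to a mean of 12.9 per bin beyond 1500 bp on either side.

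Peaks at starts were wider than distal peaks but hardly taller in the median. The median width was 145 bp for start-proximal peaks and 114.5 bp for peaks over 10 kb away. The median pileup was 15 tags (quartiles 12 and 19) for start-proximal peaks and 14 (11 and 18) for distal ones, and the median folds were 6.68 and 6.34. The shares of tall peaks had overlapping intervals, with 1.87% (1.61 to 2.15) of start-proximal and 2.01% (1.70 to 2.36) of distal peaks at 40 tags or more. The distal peaks take in more of the high-input peaks, whose median pileup was 96.5 tags. Low-input peaks were 10016 of 10017 start-proximal and 7183 of 7226 distal peaks, with median pileups of 15 and 14 tags. The shares at 40 tags or more among low-input peaks alone are not reported here. By span, 11831 peaks (56.4%) lay inside a protein-coding gene, 7814 (37.2%) outside but within 50 kb, and 1348 (6.42%, 6.09 to 6.76) farther than 50 kb from any.

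Most protein-coding genes had an Rbpj peak nearby, and the number depended on whether the start was marked as active. Of 21887 genes, 14706 (67.2%) had a summit within 50 kb of the span, 8024 (36.7%) within 1 kb of a start, and 1013 (4.63%) had 10 or more summits within 50 kb. The median was 2 peaks per gene (quartiles 0 and 4), 10% of genes had 7 or more, 1% had 14 or more, and 7181 had none. Genes with H3K4me3 over a start had a median of 4 peaks, and genes without it 0. A summit lay within 50 kb of 94.8% (94.4 to 95.2) of genes with the mark and 41.4% (40.5 to 42.3) of genes without it. A summit within 1 kb of a start was found at 7896 of 10573 genes with H3K4me3 there (74.7%, 73.8 to 75.5) and at 128 of 11314 without (1.13%, 0.945 to 1.34). The count hardly followed gene length (Spearman's rho of 0.138 across genes, which are not independent since neighbours share windows).

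The genes with most peaks had 20 to 28 summits each, and some shared them with neighbours. Piezo1, which encodes a mechanically gated ion channel, led with 28 summits within 50 kb, but a single one of them lay inside its span. Clec16a, an endosomal gene linked to autoimmunity, had 24, of which 16 were inside. Il12rb1, a chain of the interleukin-12 receptor, had 24 with 2 inside. The RNA polymerase II elongation factor gene Ell, the nucleoside transporter gene Slc29a1 and Tbc1d22a had 22 each. Cyba (a subunit of the phagocyte NADPH oxidase), Gse1, Kcnn1, Zfp553 and Zfyve28 had 21, and Cerk (ceramide kinase), Mast3, Patz1 and Septin1 had 20.

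Of these 15 genes, 7 lay on chromosome 8, and windows that overlap joined the 15 into 10 regions. Piezo1 and Cyba shared a region there, as did Il12rb1, Kcnn1 and Mast3. The tallest peak in the 15 windows ran from 23 tags (Gse1) to 53 (Tbc1d22a and Cerk), with 47 at Zfp553 and Septin1, 42 at Clec16a and 33 at Piezo1, where 99% of all peaks have 48 tags or fewer. Among genes with spans under 20 kb, 13 had 19 or more summits, 8 of them tied at 19. The first 10, in 6 regions, are named, and the other 3 tied genes include Snai3 and Rnf166. Besides Il12rb1, Slc29a1, Cyba, Zfp553 and Patz1 (a repressor of Cd8 in thymocytes) these were Arrdc2, Ctu2, Ly6e, Mvd and Mymx, of which Mymx, a muscle fusion gene, and Mvd had no summit inside the span. Ranked by count per 100 kb of window, Il12rb1 led at 20.8, and 5 of the 15 genes stayed in the first 15.

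Peaks inside the span gave another order, led by long genes. Gse1, which encodes a partner of the Kdm1a corepressor complex, held 19 summits within its 352883 bp, and Ncald and Pde10a held 17 each. Clec16a held 16 within 199570 bp, Arid1b (a chromatin remodeller) 15, and Aff1 (a transcription elongation gene) and Zfyve28 14 each. Cerk packed 13 summits into 47159 bp. Nfia also held 13 summits, although it had no H3K4me3 over a start and its nearest summit was 75770 bp from it.

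Height told of different places from number. By pileup alone, the 15 tallest peaks were all high-input peaks, with the local input recovered from pileup and fold. With 1 tag kept per position and strand and an extension to 63 bp, the pileup cannot exceed 126 tags, and 7 peaks stood at that limit. The 48 high-input peaks had folds of 1.81 to 4.19 and a median pileup of 96.5 tags, against 14 for the rest. They lay at 23 places, and 28 of them lay at 4 of these: on chromosome 2 from 98662251 to 98667294 (8 peaks, 1031 kb from Lrrc4c), on chromosome 17 from 39843065 to 39848814 (7 peaks, 102 kb from Esp38), on chromosome 9 from 3000379 to 3035885 (7 peaks, 299 kb from Alkbh8), and on chromosome 14 from 19415748 to 19419413 (6 peaks, 114 kb from Gm2244). The others of the 15 lay near Pex2 (125 tags) and Rpusd4 (126 tags). The other 4 factor lists had peaks there too: Flag-Zmiz1 and Flag-line ICN1 at all 15 of the tallest, and HA-Zmiz1 and HA-line ICN1 at 14 each.

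**Figure D2:**
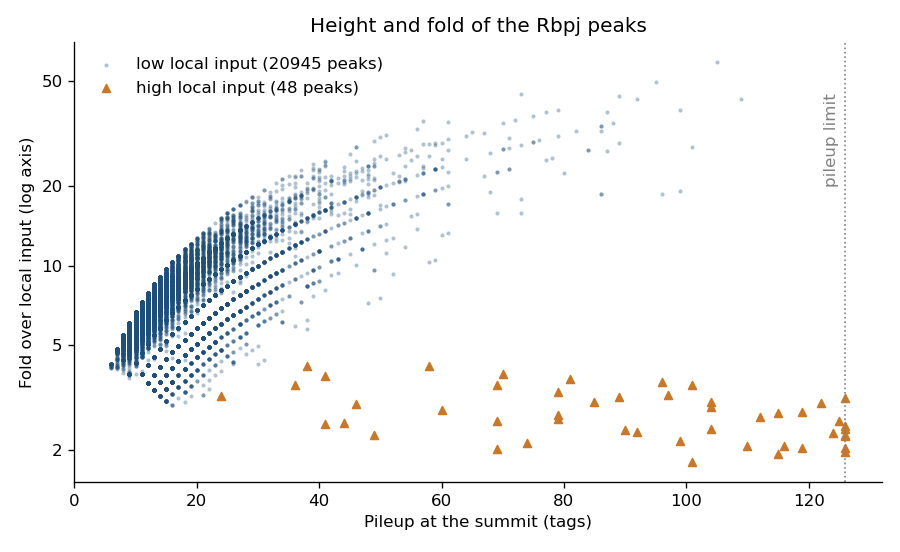
Fold over local input (vertical axis, log scale) against pileup at the summit (horizontal axis, tags) for each Rbpj peak, with 20945 low-input peaks as points and 48 high-input peaks as triangles. The triangles stay at folds of 4.19 or less up to the limit of 126 tags (dotted line), while low-input peaks reach 109 tags and a fold of 59.0.

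Among the 20945 low-input peaks, the tallest stood at the Gk5 promoter (109 tags, fold 42.8, 229 bp from the start). Next came a peak inside Gipc1, a PDZ-domain adaptor gene (chromosome 8, 83662317 to 83662659, 105 tags), which had the highest fold of the list at 59.0 and lay outside H3K4me3. The third was in Rbpj itself, on chromosome 5 from 53588890 to 53589570, with 101 tags and a fold of 28.2, 1028 bp from a listed start. The Rbpj gene held 6 summits inside its span, of 9, 101, 10, 20, 11 and 18 tags from low to high coordinates, so that 1 stood far above the rest. Rpl23 followed with 99 tags.

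Several of the tallest sites were away from starts. A peak of 99 tags on chromosome 15 from 63255590 to 63256066 lay 520 kb from the nearest coding gene, Gsdmc, and 1.27 Mb beyond Myc, a stretch where a Notch-dependent Myc enhancer of T cells has been described. Dtx1, the Deltex gene and a classical Notch target, held a peak of 95 tags (fold 49.7) inside its span, 25.8 kb from its listed start and 6.24 kb from that of Rasal1. Another of 92 tags stood 199 kb from Eef2kmt, 1 of 87 tags inside Stk3 (a Hippo pathway kinase) 15.4 kb from its start, and 1 of 87 tags 20.1 kb from Dennd2d. Cnot10, Prc1, Zbtb11 and Zfp850, whose promoter sequences are given above, completed the list with Gm50595 and Mtln at 86 tags. Lmo4, Notch3 and Scp2 also had peaks of 86 tags, so the choice of 15 cuts a tie of 5. Of the 15, 7 lay within 1 kb of a start and 5 over 10 kb away. Ranked by fold 7 of the 15 stayed, and by −log10 p 11.

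Among the 30 tallest low-input peaks, those away from starts carried the partner factors more often in number. An HA-line ICN1 peak overlapped 7 of the 15 within 1 kb of a start and 13 of the 15 beyond, and an HA-Zmiz1 peak overlapped 4 and 9. ICN1 of the Flag line overlapped 4 of the 30, beside Gsdmc, Eef2kmt, Dennd2d and Stk3, and Flag-Zmiz1 none. The other 10 peaks carried none of the 4 factors, among them those at Rbpj, Rpl23, Prc1, Rpl10a and Uqcrc2.

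Rbpj peaks gathered in clusters. With summits at most 10 kb from the next counted as 1 cluster, 6949 peaks (33.1%, 32.5 to 33.7) lay in 1819 clusters of 3 or more, 360 of them with 5 or more, and 8202 peaks (39.1%) stood alone. The clustered share was 15.9% with peaks within 1 kb merged into 1 site, and 17.0% for peaks at p of 1e-10 or less. The clusters named here, like the genes with most peaks, are ranked on peaks that were not merged. The largest had 15 peaks over 38.2 kb on chromosome 15 from 74896399 to 74934625 and overlapped no protein-coding gene. Ly6m, of the Ly6 family of lymphocyte surface antigens, was 14.8 kb away. Its tallest peak had 78 tags, HA-Zmiz1 overlapped 6 of its peaks and HA-line ICN1 3. The next, of 14 peaks, spanned Cbarp, Atp5d, Midn and Cirbp on chromosome 10, with 10 of its summits at starts.

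Clusters of 13 and 12 peaks covered Snai3, Rnf166 and Ctu2 on chromosome 8, Cerk on chromosome 15, Rnaseh2a, Prdx2, Junb and Hook2 on chromosome 8, and Irgc1, Plaur and Cadm4 on chromosome 7. In the Cerk cluster, which holds 12 summits within 24.3 kb, 1 was at a start and 5 carried HA-Zmiz1. The replication-dependent histone genes had an 11-peak cluster on chromosome 13 over 9 genes (H1f2, H3c3, H2bc3, H2ac4, H3c2, H4c2, H4c1, H3c1 and H1f1), where 8 summits were at starts and 4 peaks carried HA-Zmiz1. A second histone cluster on chromosome 13, of 10 peaks over 9 genes from H4c6 to H4c4, had all 10 summits at starts and 1 peak with HA-Zmiz1. The 5 other clusters of 10 peaks covered Mob3a and Izumo4, then Traf4, Nek8, Tlcd1 and Rpl23a, then L3mbtl3, Colq and Fmod, the last with no summit at a start. L3mbtl3, which encodes a corepressor partner of Rbpj, held all 10 summits inside its span, of 8 to 31 tags and with 7 at starts. Those 7 peaks lay between 26373103 and 26376106, each summit within 1 kb of the next, so merging within 1 kb would make them 1 site.

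The setting of peaks changed with cluster size, and not in 1 direction. The median pileup was 15 tags in clusters of 5 or more and 14 among single peaks. Start-proximal summits made up 42.1% (41.0 to 43.2) of single peaks, 55.1% (53.9 to 56.4) in pairs, 52.9% (51.1 to 54.65) in clusters of 3, 50.4% (47.96 to 52.9) in clusters of 4 and 39.4% (37.3 to 41.5) in clusters of 5 or more. H3K4me1, a mark of enhancers, covered 64.0% (61.9 to 66.0) of summits in clusters of 5 or more, 55.3% in clusters of 4 and 53.9% in clusters of 3. It covered 50.15% (48.9 to 51.4) of summits in pairs and 53.4% (52.3 to 54.5) of single ones. HA-Zmiz1 overlapped 21.7% (20.02 to 23.5), 19.8%, 17.9%, 16.2% and 15.2% (14.5 to 16.0) in the same order. At the other end, the 10 longest stretches without a summit ran from 8.12 to 16.7 Mb, 3 of them on the X chromosome. They held 177 protein-coding genes, among them the cadherins Cdh6, Cdh9, Cdh10 and Cdh12 on chromosome 15 and the protocadherin genes Pcdh20 and Pcdh9 on chromosome 14.

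Classical Notch targets had Rbpj peaks at shares near those of all genes, but some of the tallest. A summit lay within 50 kb of 16 of 20 (80%, 56.3 to 94.3, beside 67.2% of all genes) and within 1 kb of a start of 8 (40%, 19.1 to 64.0, beside 36.7%). The median was 4 peaks per gene, against 2 over all genes. Both intervals include the value over all genes. The tallest sites lay away from the targets' own starts. Besides Dtx1, Notch3 had 86 tags 2495 bp from its start. Nrarp (a feedback inhibitor of the Notch complex) had 59 tags 30.7 kb away and outside the gene, and Ccnd3 (cyclin D3) 59 tags 37.2 kb from its start. These distances are to each gene's own start, and those from the Nrarp and Ccnd3 peaks to starts of neighbours are not reported here.

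Notch3 shows the contrast in 1 gene, with 5 summits of 14, 10, 86, 19 and 10 tags from low to high coordinates. The 86-tag peak carried HA-Zmiz1 and HA-line ICN1, and the 19-tag peak 733 bp from the start carried neither. Dtx1 had 4 summits of 10, 10, 95 and 21 tags, and the last 2, inside the gene, carried HA-line ICN1. At Nrarp the 9 summits had 46, 11, 19, 15, 10, 12, 59, 19 and 24 tags, none of them closer than 12.2 kb to the start. The 46-tag peak carried HA-line ICN1, while the 59-tag peak carried none of the 4 other factors.

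Igf1r (the insulin-like growth factor 1 receptor) and Ccnd3 had most peaks of the targets, 16 each. In Igf1r the tallest had 26 tags, 450 bp from the start, and a 24-tag peak beyond the gene was the single target peak with Flag-line ICN1. Notch1 had 7 summits, of which the tallest (25 tags) lay 1.39 kb inside the gene. Il2ra (CD25) had 7 summits of 12 to 27 tags, Myc 6 of 13 to 27, Cdkn1a 6 with 33 tags as the tallest, Gata3 6 with 16, Ptcra (the pre-T-cell receptor alpha chain) 4 of 10 to 32, Trib2 4 with 32 and Skp2 3 with 37. Heyl and Hes5 had 2 summits each and Hey2 had 1, at 10 to 19 tags.

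The hairy-family repressor Hes1, often taken as the reference Notch target, had no summit within 50 kb, and its nearest was 169 kb away. Hey1 (nearest summit at 257 kb), Ccnd1 (346 kb) and Rhou (138.5 kb) also had none. None of these 4 had H3K4me3 over a start. All 8 targets with a summit at the start were among the 13 with H3K4me3 there. Of the 98 Rbpj peaks near targets, HA-Zmiz1 overlapped 17 and HA-line ICN1 9, each at 7 genes, and Flag-Zmiz1 overlapped none. Over all Rbpj peaks, HA-Zmiz1 overlapped 16.9%, HA-line ICN1 1.84% and Flag-Zmiz1 0.391%.

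Rbpj and the genes of its cofactors nearly all had a summit at the start. All 19 had a summit within 50 kb (100%, 82.4 to 100), and 17 within 1 kb of a start (89.5%, 66.9 to 98.7). Over all genes these shares were 67.2% and 36.7%, but all 19 had H3K4me3 over a start. Of all genes with H3K4me3 there, 94.8% had a summit within 50 kb and 74.7% at a start, and both intervals include these shares. Spen, the corepressor scaffold, had 10 summits, of which the tallest had 69 tags 7.38 kb from a start. Kdm5a (an H3K4 demethylase) had 9 with 42 tags as the tallest, and Hdac1 8 with 39. That Hdac1 peak of 39 tags lay outside the gene, 15.7 kb from its start, and is the peak 2 bp from the Lck start. Sin3a had 9, Kat2b and Zmiz2 7 each, Maml3, Ncor1, Ep300 and Zmiz1 6 each, Maml1 4, Maml2 and Crebbp 3 each, and Cir1, Snw1 and Kdm1a 2 each. Such counts take in peaks at the starts of neighbours, as with a Zmiz2 summit of 11 tags 68 bp from the Ppia start. The exceptions at the start were Maml2 (nearest summit 51.0 kb away, 17 tags) and Zmiz1 (4.66 kb, 10 tags). Of the 108 Rbpj peaks near these genes, HA-line ICN1 overlapped 1, at Kdm5a, and HA-Zmiz1 14, beside 1.84% and 16.9% of all Rbpj peaks.

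T-cell genes carried many Rbpj peaks. All 20 T-cell receptor and surface genes had one within 50 kb (83.2 to 100%), 18 at a start (90%, 68.3 to 98.8), and 9 had 10 or more peaks, beside 67.2%, 36.7% and 4.63% of all genes. All 20 had H3K4me3 at a start. Of all such genes, 94.8% had a summit within 50 kb and 74.7% at a start, and the 2 intervals include these shares. Among such genes 8.01% had 10 or more peaks. The co-receptor genes Cd4 and Cd8b1 had 15 each, and Cd3e, Cd3g and Cd8a 13 each. Cd3d, Cd3e and Cd3g share a window, as do Cd8a and Cd8b1, so their counts are not independent. At starts, Lck (the kinase of the co-receptors) had 39 tags 2 bp from its start and Cd8a 33 tags 77 bp away. Ptprc (12.4 kb to the nearest summit) and Dntt (1.93 kb) had none within 1 kb.

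The 21 T-lineage regulators, of which Gata3 is also among the Notch targets, all had a summit within 50 kb, 17 at a start (81.0%, 58.1 to 94.55) and 7 had 10 or more, beside 67.2%, 36.7% and 4.63% of all genes. H3K4me3 marked a start of 20 of them, and the interval includes the 74.7% of all such genes. A summit within 50 kb was found for 94.8% of all such genes. Ikzf3 had 16, Ikzf1 and Tcf7 15, Ets1 and Tcf12 14, and Runx1 12. The tallest peak near Ikzf1 had 58 tags and that near Bcl11b 52. Runx3 stood apart with 1 summit, of 20 tags and 54.0 kb from its start, and it was the single member of this list without H3K4me3 at a start.

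Genes of other blood lineages had peaks within 50 kb at shares whose intervals include that of all genes, and few at the start. Of 12 B-cell genes 10 had a summit within 50 kb (83.3%, 51.6 to 97.9, beside 67.2% of all genes) and 2 at a start (beside 36.7%), Ebf1 and Cr2, which were also the 2 with H3K4me3. Blnk had 6 peaks and Cd79a, Cd79b, Igll1 and Vpreb1 4 each, while Cd22 and Ms4a1 had none. Of 12 myeloid genes 10 had a summit within 50 kb and none at a start (up to 26.5%). H3K4me3 marked a start of 1 of these 12, and 41.4% of all genes without it had a summit within 50 kb. Elane and Mpo had 10 peaks each and Cd14 and Itgam 6, and Cebpa and Lyz2 had none. The nearest summits to the Elane and Mpo starts were 6.60 and 34.0 kb away, in windows that also take in neighbouring genes.

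Developmental regulators of other tissues were mostly free of peaks, and 5 of the 20 had H3K4me3 over a start. Summits lay within 50 kb of 6 of 20 (30%, 11.9 to 54.3) and at the start of 2, among them Lhx2 (23 tags). Lhx2 had 4 peaks, Gata4 and Nkx2-2 3 each, and Hoxa13 and Hoxb1 1 each, and genes such as Foxa2, Hoxd11 and Neurod1 had none. Over all genes these shares were 67.2% and 36.7%. Of all genes without H3K4me3 over a start, 41.4% had a summit within 50 kb, which the interval of 11.9 to 54.3 includes. Of all genes with it, 94.8% had a summit within 50 kb and 74.7% at a start. Housekeeping genes had 20 of 20 within 50 kb and 17 at a start (85%, 62.1 to 96.8), of 19 with H3K4me3 there. Hsp90ab1 had 16 peaks, Eef2 12, Actb and Vcp 11 and Ppia 8. Of the 20 replication and cell-cycle genes, 19 had a summit within 50 kb and 16 at a start (80%, 56.3 to 94.3), and all 20 had H3K4me3 there. Cdc6, Cdt1 and Mcm7 had 10 each, Mcm2 7, and Ccne1 and Rpa1 5. Mcm3, with H3K4me3 at its start, had none within 50 kb.

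Families taken by symbol gave the same split picture. A summit at a start was found for 36.7% of all genes and 74.7% of those with H3K4me3 there. H3K4me3 marked a start of 77 of 78 mitochondrial and 90 of 100 cytosolic ribosomal protein genes, and of 3 of 1110 olfactory receptors. At starts, summits were found for 67 of 78 mitochondrial ribosomal protein genes (85.9%, 76.2 to 92.7), 24 of 28 RNA polymerase subunits (85.7%), 47 of 56 Eif (initiation factor) genes (83.9%), 40 of 49 complex I (Nduf) genes (81.6%), 41 of 51 proteasome genes (80.4%) and 77 of 100 cytosolic ribosomal protein genes (77%, 67.5 to 84.8). Rpl23 and Rpl10a (79 tags) were the tallest of the ribosomal starts, Mrpl45 had 47 tags, Psma1 38, Ndufab1 40, Eif4enif1 69 and Polr3f 49. Zinc-finger genes named Zfp were between, with 190 of 397 (47.9%, 42.9 to 52.9). At the low end were 2 of 1110 olfactory receptors (0.180%, 0.0218 to 0.649), 0 of 355 vomeronasal receptors (up to 1.03%) and 0 of 109 keratin genes (up to 3.33%).

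Distance separated some families that the wide window did not. Hox genes had a summit within 50 kb in 25 of 39 cases (64.1%, 47.2 to 78.8), near the background, but at a start in 1 (2.56%, 0.0649 to 13.48), Hoxb5 with 12 tags. Potassium channel (Kcn) genes had 61 of 94 (64.9%) within 50 kb and 12 (12.8%, 6.77 to 21.2) at a start, and the tallest of those, Kcnh6, had 61 tags. All 8 Gimap genes, a lymphocyte GTPase family, had summits within 50 kb (63.1 to 100%) and 2 at a start (3.19 to 65.1%). Both intervals include the shares of all genes, 67.2% and 36.7%. Of the genes with a summit at a start, 76 of 77 cytosolic ribosomal, 41 of 41 proteasome and 189 of 190 Zfp genes had H3K4me3 there, but 10 of 12 Kcn, 1 of 2 Gimap and 0 of 2 olfactory receptor genes.

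**Figure D3:**
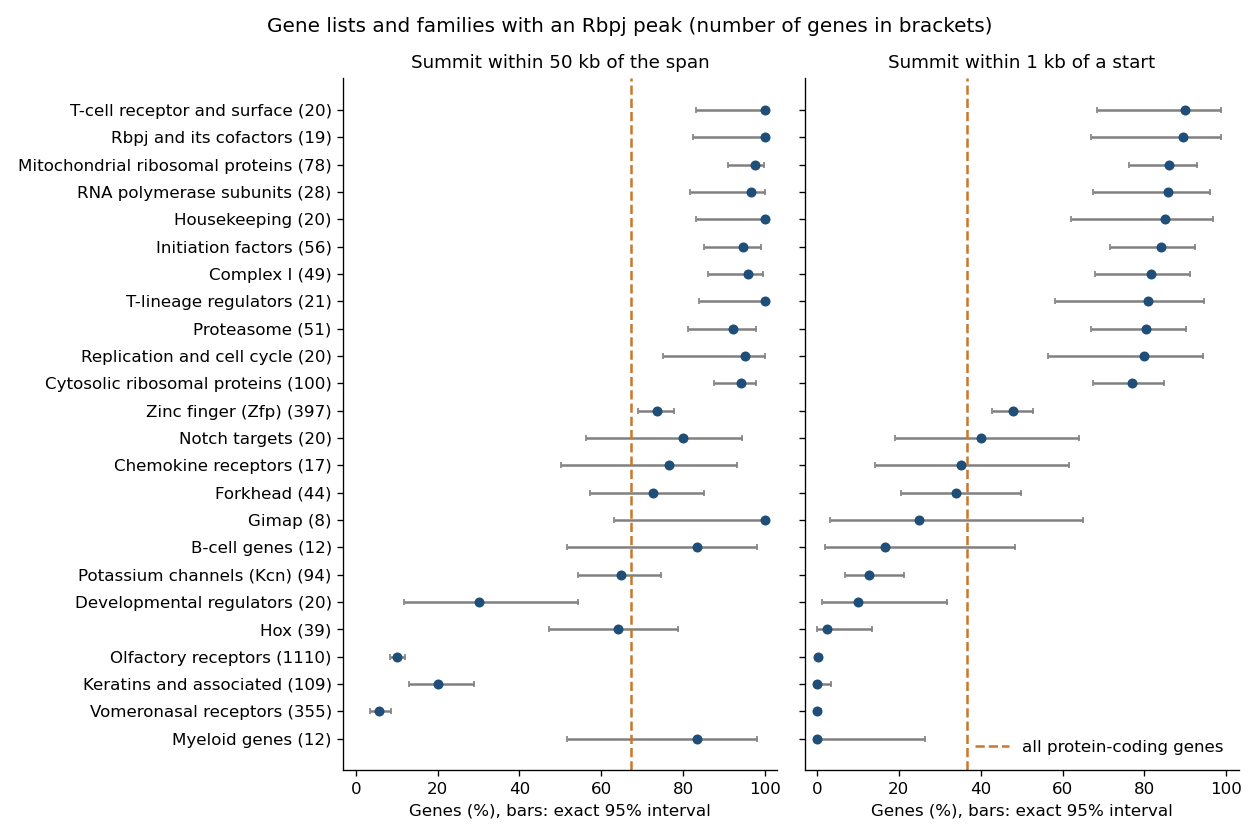
Share of genes with an Rbpj summit within 50 kb of the span (left) and within 1 kb of a start (right), in percent, for each list and family, with exact 95% intervals as bars and the share of all protein-coding genes as a dashed line (67.2% left, 36.7% right). Lists spread widely at starts, from 0% of 12 myeloid genes to 90% of 20 T-cell receptor and surface genes, whereas within 50 kb both lists are above 80%.

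Start-proximal and distal Rbpj peaks lay in different chromatin. H3K4me3 segments held 98.8% (98.6 to 99.04) of start-proximal and 75.7% (74.7 to 76.6) of distal summits. In the upper 50% of those segments by fold, the shares were 97.7% (97.4 to 98.0) and 31.2% (30.2 to 32.3), so most distal summits in H3K4me3 lay in its weaker segments. H3K4me1 went the other way, with 24.9% (24.1 to 25.8) of start-proximal and 83.2% (82.3 to 84.0) of distal summits. The library labelled H3K27me3 held 94.7% and 78.1%, and that labelled H3K27ac 4.87% (4.46 to 5.31) and 3.94% (3.51 to 4.42). Outside every histone segment were 42 start-proximal peaks (0.419%) and 668 distal ones (9.24%). Segments of the 4 libraries cover 66.3 to 196.5 Mb each, and the widest list was H3K4me1.

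The partner factors overlapped distal Rbpj peaks more often than start-proximal ones. HA-Zmiz1 overlapped 810 of 10017 start-proximal (8.09%, 7.56 to 8.64) and 2033 of 7226 distal Rbpj peaks (28.1%, 27.1 to 29.2), and HA-line ICN1 0.659% (0.510 to 0.838) and 3.50% (3.09 to 3.95). In the Flag line itself the overlaps were few: 15 start-proximal (0.150%) and 52 distal peaks (0.720%) with Flag-Zmiz1, and 0 and 56 with ICN1. Without high-input peaks those differences, start-proximal minus distal, shrank to -0.157 percentage points for Flag-Zmiz1 and -0.306 for ICN1, against -0.570 and -0.775 with them. Overlap rose with Rbpj height in both classes. Among the top 10% of low-input peaks by pileup (24 to 109 tags), HA-Zmiz1 overlapped 22.5% (20.1 to 24.99) of start-proximal and 63.5% (59.6 to 67.3) of distal peaks, and among the lowest 10% (6 to 10 tags) 1.09% and 7.83%. HA-line ICN1 was largely limited to the top 10%, where it overlapped 4.84% (3.69 to 6.22) of start-proximal and 26.9% (23.4 to 30.6) of distal peaks. It overlapped 13.4% of the top 10% in all, 1.62% of the next and 0 of 2095 peaks in the lowest (up to 0.176%). Rbpj and the HA-line libraries come from different transduced lines, and fewer shared sites in a shorter list cannot be told apart from a difference in depth.

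The share of peaks at starts also rose with height, as did the share in H3K4me3. It was 56.3% (54.1 to 58.4) in the top 10% and 39.6% (37.5 to 41.7) in the lowest. H3K4me3 held 94.7% of summits in the top 10% and 76.0% in the lowest, and the library labelled H3K27ac 2.44% and 9.02%.

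Which promoters held an Rbpj summit went with H3K4me3 and with CpG content. Of 21263 listed windows (250 bases before to 50 after the start, for 17492 of the genes), 5673 (26.7%, 26.1 to 27.3) held a summit. With H3K4me3 over the start the share was 54.8% (53.8 to 55.8), and without it 35 of 10972 (0.319%, 0.222 to 0.443). Windows with a summit had a median of 24 CpG and 63% G+C, against 19 CpG and 60% G+C for windows with H3K4me3 but no summit. Among the windows with H3K4me3, a summit was found in 15.4% (7.63 to 26.5) of those with 0 or 1 CpG, 39.1% (36.3 to 41.9) with 10 to 14, 66.5% (64.1 to 68.8) with 25 to 29 and 58.35% (55.0 to 61.6) with 40 or more. The share rose up to 25 to 29 CpG and was lower in the richest class.

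Starts that share a promoter with a gene on the other strand held a summit more often. Of windows with H3K4me3, 1017 of 1567 (64.9%, 62.5 to 67.3) with an opposite-strand start up to 1 kb upstream had a summit, and 4621 of 8724 (53.0%, 51.9 to 54.0) of the others did. The windows of such pairs can overlap, so that 1 summit may count in both.

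The core word alone did not set the bound promoters apart. TGGGAA (either strand) stood in 1303 of 5673 windows with a summit (23.0%, 21.9 to 24.1) and in 3909 of 15590 without (25.1%, 24.4 to 25.8). Windows without a summit include the many that lack H3K4me3 and CpG. Among windows with H3K4me3 and 15 or more CpG, a subset chosen after seeing the data, the order turned: 20.8% (19.7 to 21.98) with a summit and 17.2% (15.8 to 18.5) without. The same letters shuffled (GTAGAG) gave 9.25% and 9.06% there. The longer word CGTGGGAA stood in 1.59% (1.28 to 1.95) of windows with a summit and in 0.590% (0.476 to 0.723) of those without, and TGTGGGAA in 1.75% (1.42 to 2.12) and 1.58% (1.39 to 1.79).

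Words of several other factors also differed between promoters with and without a summit. In the same subset, the ETS word CCGGAA stood in 38.8% (37.5 to 40.2) with a summit and in 28.7% (27.1 to 30.4) without, the NRF1 word GCATGCGC in 8.19% and 5.17%, the YY1 word AAGATGGC in 6.78% and 3.75%, the ZNF143 word ACTACAA in 4.92% and 2.63%, and the CREB word TGACGTCA in 4.62% and 2.96%. The words for SP factors (GGGCGG, 78.1% and 77.5%), NFY (CCAAT, 36.9% and 38.1%) and RUNX (TGTGGTT, 2.55% and 2.83%) had overlapping intervals. Over all listed promoters these words stood in 18.7% (ETS), 3.52% (NRF1), 3.05% (YY1), 3.60% (ZNF143), 2.23% (CREB), 46.2% (SP), 38.2% (NFY) and 4.71% (RUNX), and the shuffled letters in 11.2%. All words were searched on both strands, and the core word lies within both longer forms.

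The core word was commonest under the tallest summits. Among 720 summits of the top 10% in pileup that fell in a listed window, 37.4% (33.8 to 41.0) of windows held TGGGAA, against 15.3 to 25.95% in the 9 lower groups of 10% (ties in pileup split by −log10 p). CGTGGGAA stood in 7.64% (5.81 to 9.83) of the top group and in 0.248 to 1.05% of the others. Of the 30 tallest such promoters, 22 held the core word. ETS words stood in 39.4% (35.9 to 43.1) of the top group and in 28.4% (23.3 to 33.95) of the lowest. The ZNF143 word gave 5.56% and 4.15%.

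Within windows the core word was densest at the summit. In the top 10%, TGGGAA occurred 5.35 times per kb of window within 10 bp of the summit, 3.48 at 10 to 25 bp, 1.01 at 50 to 75 bp and 0.595 at 150 to 200 bp. CGTGGGAA fell from 1.41 per kb within 10 bp to 0.0354 at 150 to 200 bp, where it rests on 20 and 1 matches. The ETS word had a flat top at 1.83, 2.32, 2.67 and 2.36 per kb from 0 to 75 bp. The NFY word was rarest at the summit, with 0.296 per kb within 10 bp and 2.13 at 75 to 100 bp. Over all 5178 low-input summits in windows, the core word stood at 1.84 per kb within 10 bp and 0.743 at 150 to 200 bp, and the shuffled letters at 0.295 and 0.2905.

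**Figure D4:**
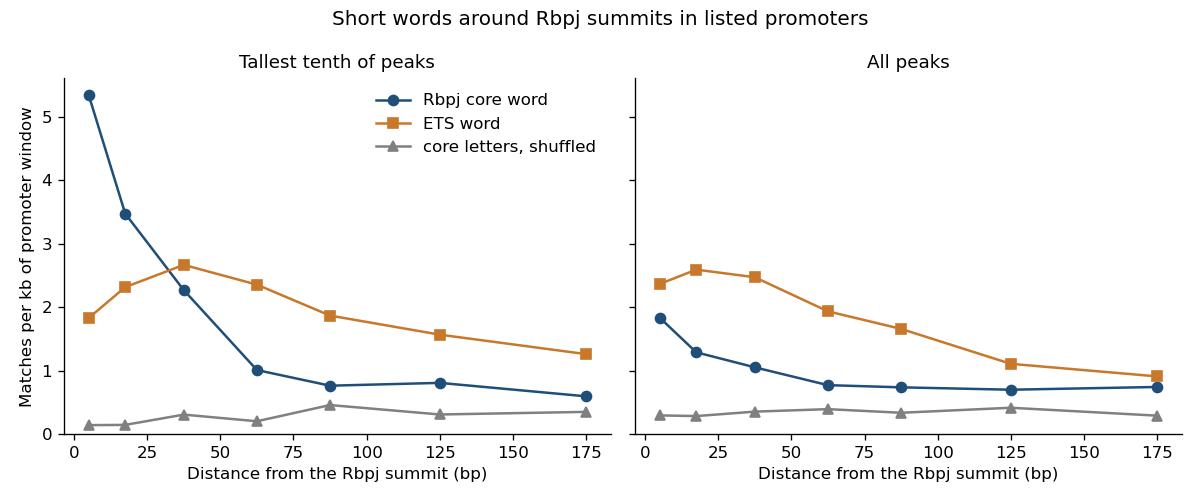
Matches per kb of promoter window (vertical axis) by distance from the Rbpj summit (horizontal axis, bp) for the Rbpj core word, the ETS word and the shuffled core letters, in the top 10% of peaks by pileup (left) and in all low-input peaks (right). In the top 10% the core word reaches 5.35 per kb within 10 bp and is at 0.595 beyond 150 bp, while the shuffled letters stay between 0.141 and 0.458.

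Rbpj peaks were not spread evenly over chromosomes. Chromosome 15 had 1229 low-input peaks for 776 protein-coding genes, or 158 per 100 genes, while 18 other autosomes had 72.6 (chromosome 14) to 120.5 (chromosome 12). Peaks there were also taller, with a median of 17 tags against 14 to 15, but not higher in fold (6.23 against 6.35 to 6.68). The local input at those peaks moved with them, at a median of 2.64 times the genome mean against 1.71 to 1.97. Along chromosome 15 in steps of 20 Mb, the median input at peaks was between 2.45 and 2.85 and the median pileup between 16 and 18. With peaks at p of 1e-10 or less, chromosome 15 had 94.85 per 100 genes and the others 40.6 to 68.3.

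At starts with H3K4me3 the difference was smaller: 353 of 422 such genes on chromosome 15 had a summit within 1 kb (83.65%, 79.8 to 87.05), and 70.3 to 78.3% did on the other autosomes. The X chromosome was low in these counts, with 343 low-input peaks (35.5 per 100 genes), a median pileup of 11 tags, a median input of 1.01 and 58.1% (52.2 to 63.7) of H3K4me3-marked genes with a summit at a start. The HA-Zmiz1 list, from the other line and its own input, had 38.4 peaks per 100 genes on chromosome 15 (14.9 to 34.0 on other autosomes and 3.62 on X), with a median input of 2.32 (1.69 to 2.11 and 1.11). The shorter Flag-Zmiz1 list, from the same line as Rbpj, had 5.54 per 100 genes there (1.70 to 4.70 on other autosomes and 0.311 on X), with a median input of 1.77 (1.01 to 1.77 and 1.01). The recovered input has the genome mean as its lower limit, so values near 1, as on X, may hide a lower input. The part of the local input in these counts was not tested. Myc, Cerk, Tbc1d22a, Ly6e and Skp2, whose Rbpj peaks are described above, all lie on chromosome 15.

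**Figure D5:**
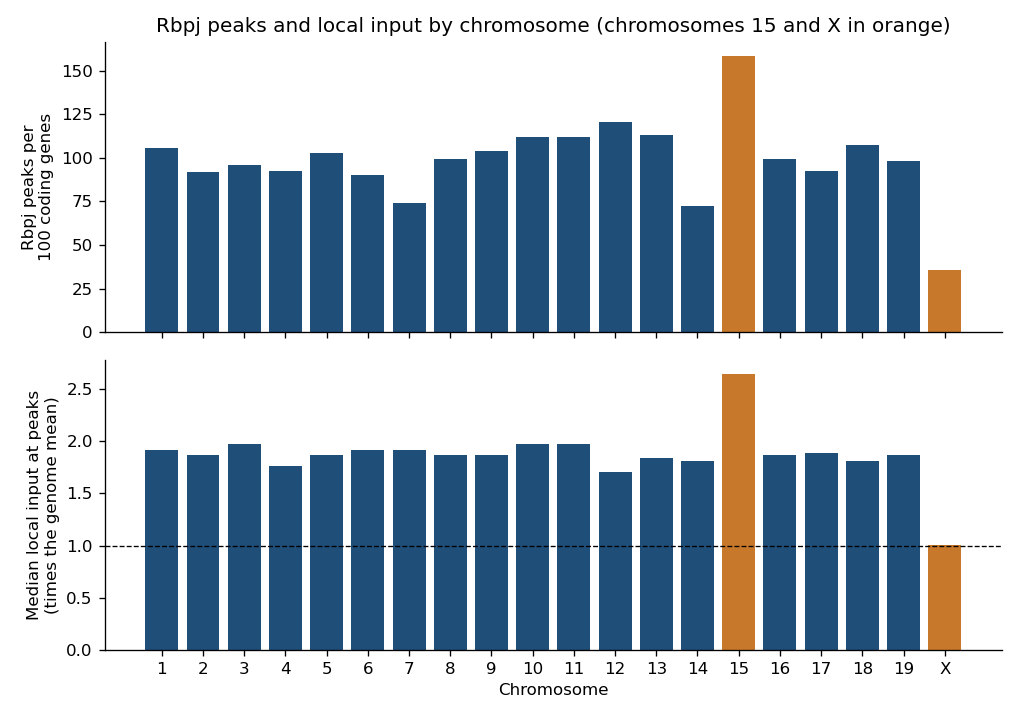
Low-input Rbpj peaks per 100 protein-coding genes (top) and the median local input at those peaks in multiples of the genome mean (bottom, dashed line at 1) for each autosome and X (Y, with 3 peaks, is not drawn), with chromosomes 15 and X in orange. Of those drawn, chromosome 15 stands highest in both panels (158.4 peaks and 2.64) and X lowest (35.5 and 1.01). The recovered input has the genome mean as its lower limit.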

How the data were processed

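Per the submitters' processing notes, reads were handled with FastQC 0.10.0, Bowtie 0.12.7, MACS2 2.0.10, SICER 1.1 and HOMER 4.2, on mm10, with no role given for each tool. Per the file headers, MACS 2.0.10.20120913 called the Rbpj peaks of the 1 library against the input of its line at a p of 1e-05, with 1 tag kept per position. The deposited signal is the pileup at the summit, the deposited significance is −log10 p, and the deposited fold is the ratio of pileup to local input. Fold values per histone segment are likewise the authors' and were used only to rank segments within a list.

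Local input was recovered from pileup and fold, and 10 times the mean marks high input, a limit chosen after seeing the data. Summits were set against 21887 protein-coding genes of RefSeq GRCm38.p6. For 4395 genes without a listed start, both span ends were used. Promoter windows and sequences are RefSeq's (GRCm38.p6). Distal sequence was not analysed here. Python 3.11.15, numpy 2.4.6, pandas 2.3.3, scipy 1.17.1 and matplotlib 3.10.9 were used, and the steps were tested on simulated data. Shares carry exact Clopper-Pearson 95% intervals. With 1 library per target, no p-value was computed.

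Members, the 9 gene lists, 15 families and 12 words were chosen with earlier results of these data known. Genes named are the 15 with most peaks, the 10 with most among spans under 20 kb, those at the 15 tallest peaks, those in the 10 largest clusters and gaps, the Notch targets and cofactors, and up to 6 with most peaks and 4 with none from each other list. Other genes named, such as Snai3, Rnf166, Colq, Fmod, Lck, Ptprc, Dntt, Bcl11b, Runx3, Ebf1, Nfia and the family examples, were chosen after their values were seen. Some list genes are counted but not reported by name here. Alternatives were peaks at p of 1e-10 or less, no high-input peaks, other windows and gaps, other overlap rules and another word.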

Additional observations from a re-analysis of the deposited data

How the results depend on the processing

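Of 54 alternative values for 15 results, 21 stayed, 30 moved and 3 reversed. A share or a difference of shares stayed if within the 95% interval of the value reported, and a median if within 1.5 times it. Without high-input peaks, 13 of 15 results stayed. With the 11871 peaks at p of 1e-10 or less, 51.4% were within 1 kb of a start and 6.09% over 50 kb from a span, 58.2% of genes had a peak (median 1), and 17.0% of peaks were clustered. Start shares were 44.3% with either span end and 53.5% at 2.5 kb, and 1.005% of peaks were over 50 kb from any gene of the table, coding or not. Genes with a peak were 48.6% (median 0) at 5 kb and 80.9% (median 6) at 200 kb. Clustered peaks were 22.5% at a gap of 5 kb, 54.5% at 25 kb and 15.9% with peaks merged within 1 kb. The start-proximal minus distal median difference was 0.336 in fold, against 1 tag in pileup. It is counted as moved, although the units differ. The core-word difference between promoters with and without a summit, -2.11 percentage points, reversed to 0.445 at the stricter p, 1.14 for the longer words, and 3.66 among H3K4me3 starts with 15 or more CpG, chosen after seeing the data; the cause was not tested. Start-proximal minus distal overlaps, in percentage points at the stricter p, were -27.1 for HA-Zmiz1, -5.4 for HA-line ICN1, -0.907 for Flag-Zmiz1, -1.34 for Flag-line ICN1, 18.8 for H3K4me3, -62.5 for H3K4me1, 14.25 for the library labelled H3K27me3 and 0.261 for that labelled H3K27ac. With summits at most 100 bp apart HA-Zmiz1 gave -17.6. Without high-input peaks Flag-Zmiz1 gave -0.157 and Flag-line ICN1 -0.306. In the upper 50% of segments, H3K4me3 gave 66.5, H3K4me1 -61.35 and the library labelled H3K27me3 22.8. No paired analysis was possible because each target has 1 library per line.

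Counts of peaks depend on the depth of 1 Rbpj library and its input, and intervals hold no variation between cultures. Genes close together share peaks, so their counts are not independent. The pileup is capped by the 1 tag kept per position, which limits the order of the tallest peaks. Partner overlaps compare lists of unequal length, partly from the other line, and a missing overlap is a peak not listed, not an absence of binding.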
